A study of Mus musculus with 6 samples.

Results

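The 6 genes Zfand3, Btbd9, Gm6402, Glo1, Dnah8 and Glp1r lie in this order on mouse chromosome 17, in and around a stretch of the genome known to differ in copy number between inbred mouse strains. Every probe set that the platform annotation assigns to exactly 1 of these symbols was taken. This gave 6 probe sets, 1 for each gene, out of 22180 genes measured by a probe set with 1 symbol, and 0 further probe sets name any of the 6 together with another gene. The genes were chosen by the measured knockout minus wildtype differences of Glo1 and Btbd9 on these arrays, together with their place on the chromosome. For the 6 genes that difference and its calls are therefore a description that the choice of genes fixed in part. Tests are read only for the other genes of the region and of the related pathways. The pathway lists were chosen with earlier results of these data known.

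The arrays (Affymetrix Mouse Gene 2.0 ST) measured RNA from the hippocampus of male mice at postnatal day 21. One group of 3 mice was homozygous for null alleles of Tnc, Tnr, Bcan and Ncan (Tnc -/-, Tnr -/-, Bcan -/-, Ncan -/-), which encode the matrix proteins tenascin-C, tenascin-R, brevican and neurocan, and the other group of 3 mice was wildtype. The methods name SV129 as the strain of the housed mice and call the array animals siblings. They do not say how the alleles were combined or which mice shared parents, and a figure legend calls the samples dependent. The p-values measure only the spread between these 6 mice and treat the arrays as independent. The targeted genes lie on chromosomes 4 (Tnc), 1 (Tnr), 3 (Bcan) and 8 (Ncan), so no targeted locus is on chromosome 17. No DNA was measured, and a copy number or strain difference at this block, an effect of the missing matrix proteins, fewer cells of a type and less RNA per cell cannot be told apart in these data. Bcan fell in all 3 knockout arrays to signals between 5.72 and 5.85, against 10.36 to 10.68 in the wildtype, and the brighter Ncan probe set fell to 6.35 to 6.81 against 11.73 to 11.82, which checks the genotype labels. The probe sets of Tnc (-0.15, limma adjusted p = 0.794) and Tnr (-0.10, limma adjusted p = 0.706) did not pass the test, and whether they lie in a deleted part was not examined. Signals are on the log2 scale after Robust Multichip Average (RMA) normalization, errors are SD over 3 arrays unless SE is written, and differences are quadruple knockout minus wildtype. A signal of 6.03, the 95th percentile over 1108 probe sets of olfactory receptor genes, was taken as the background level. All 11 measured markers of hippocampal neurons were above it on every array, as were all 8 of astrocytes. Of 7 measured testis and pancreas markers 1, Odf1, had a mean above it. Odf1 read 11.86 to 11.97 over the arrays, and what its probe set reads was not examined.

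The block brings together proteins of unrelated function. Glo1 encodes glyoxalase 1, which with the cofactor glutathione removes methylglyoxal, a reactive by-product of glycolysis, and Glo1 has been studied in mice for its link to anxiety-like behaviour. Btbd9 encodes a BTB domain protein, a class that includes adaptors of the cullin 3 ubiquitin ligase, and human BTBD9 is a known risk locus for restless legs syndrome. Dnah8 encodes a heavy chain of axonemal dynein, the motor of cilia and sperm flagella, and Glp1r the receptor of the gut and brain peptide GLP-1. Zfand3 encodes an AN1 type zinc finger protein, and Gm6402 is annotated in RefSeq as a transcribed pseudogene that lies inside the span of Btbd9.

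Glo1 and Dnah8 are near neighbours in the gene order, are read from opposite strands and both had lower signals in the quadruple knockout, so the RefSeq sequences at their starts are shown (assembly GRCm38.p6, 250 bases before to 50 bases after the start, in the direction of transcription). The Glo1 window is chr17:30612610-30612909 on the minus strand and the Dnah8 window is chr17:30626686-30626985 on the plus strand. Capitals mark CCAAT boxes (CCAAT or ATTGG) and GC boxes (GGGCGG or CCGCCC) on either strand, where overlapping matches are counted separately and run together.
Glo1 start: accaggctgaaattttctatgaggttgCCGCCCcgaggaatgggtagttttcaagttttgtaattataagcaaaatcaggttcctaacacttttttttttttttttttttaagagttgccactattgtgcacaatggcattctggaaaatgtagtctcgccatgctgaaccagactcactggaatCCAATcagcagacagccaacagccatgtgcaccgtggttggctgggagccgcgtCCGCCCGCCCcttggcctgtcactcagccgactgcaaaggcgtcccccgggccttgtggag
Dnah8 start: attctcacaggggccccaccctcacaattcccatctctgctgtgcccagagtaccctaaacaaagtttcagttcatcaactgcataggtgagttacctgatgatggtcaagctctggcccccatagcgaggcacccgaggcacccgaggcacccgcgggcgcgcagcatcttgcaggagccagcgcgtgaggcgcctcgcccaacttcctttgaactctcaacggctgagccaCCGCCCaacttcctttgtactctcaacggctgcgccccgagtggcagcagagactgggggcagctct
The Glo1 window held 1 CCAAT box and 3 GC boxes, the Dnah8 window 0 and 1. Over 32851 RefSeq windows of this length, 37.4% held a CCAAT box and 35.7% a GC box. The table held such a window for 4 of the 6 genes. Both remaining windows, those of Zfand3 and Glp1r, held 0 CCAAT boxes and 1 and 3 GC boxes. The antioxidant response element, searched as TGACNNNGC or GCNNNGTCA, was found in 0 of the 4 windows and in 12.4% of all windows, and the TATA box, searched as TATAAA or TTTATA, in 0 of the 4 and in 13.6% of all. The windows of Glo1 and Dnah8 had 49.7% and 60.3% G and C, those of Zfand3 and Glp1r 78.7% and 73.7%, and the median of all windows was 52.7%. These letters describe the reference assembly and not the mice on the arrays.

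Glo1 had the largest difference of the 6 genes. Its signals were 10.19, 10.09 and 10.28 in quadruple knockout replicates 1, 2 and 3 and 10.88, 10.93 and 11.09 in wildtype replicates 1, 2 and 3. The groups did not overlap, and the gap of 0.60 between the highest knockout and the lowest wildtype array was wider than the range within either group (0.18 and 0.21). The means were 10.19 ± 0.09 (SD, n = 3) and 10.97 ± 0.11 (SD, n = 3), a log2 difference of -0.78 (SE 0.09), or 1.72-fold more signal in the wildtype. Ordered from the lowest, this difference was number 15 of 34472 probe sets.

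Btbd9 showed the same arrangement of the arrays. It read 10.89, 10.80 and 10.78 in knockout replicates 1, 2 and 3 and 11.43, 11.44 and 11.58 in wildtype replicates 1, 2 and 3. Again the gap between the groups, 0.54, exceeded the ranges of 0.10 and 0.15 within them, and for both genes wildtype replicate 3 was the highest array. The difference was -0.66 (SE 0.08), or 1.58-fold more in the wildtype, and was number 35 from the lowest.

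Dnah8 and Gm6402 were lower as well, at signals near or below the background level. Dnah8 read 5.70, 5.69 and 5.55 in the knockout replicates, below the background level on all 3 arrays, and 6.11, 6.30 and 6.24 in the wildtype replicates, above it on all 3. The measured log2 difference was -0.57 (SE 0.08). Measured from the background level, because the knockout signals lay under it, Dnah8 was at least 1.14-fold higher in the wildtype, and the size of the difference beyond that bound was not measured. Gm6402, the pseudogene, read 5.09, 5.14 and 5.05 in the knockout and 5.38, 5.47 and 5.28 in the wildtype replicates. These groups did not overlap either, but all 6 signals lay below the background level, so no fold is given (measured log2 difference -0.28, SE 0.08).

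Zfand3 and Glp1r, the first and the last gene of the 6 in the gene order, had overlapping groups. Zfand3 read 10.93, 10.93 and 10.99 in the knockout and 10.96, 10.91 and 10.87 in the wildtype replicates, a log2 difference of 0.04 (SE 0.07). Its arrays all lay within a narrow band. Glp1r read 10.28, 10.53 and 10.03 in the knockout and 10.69, 10.15 and 10.44 in the wildtype replicates, a difference of -0.14 (SE 0.17). Here the spread within the groups, with SD of 0.25 and 0.27, was larger than the difference between them.

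**Figure D1:**
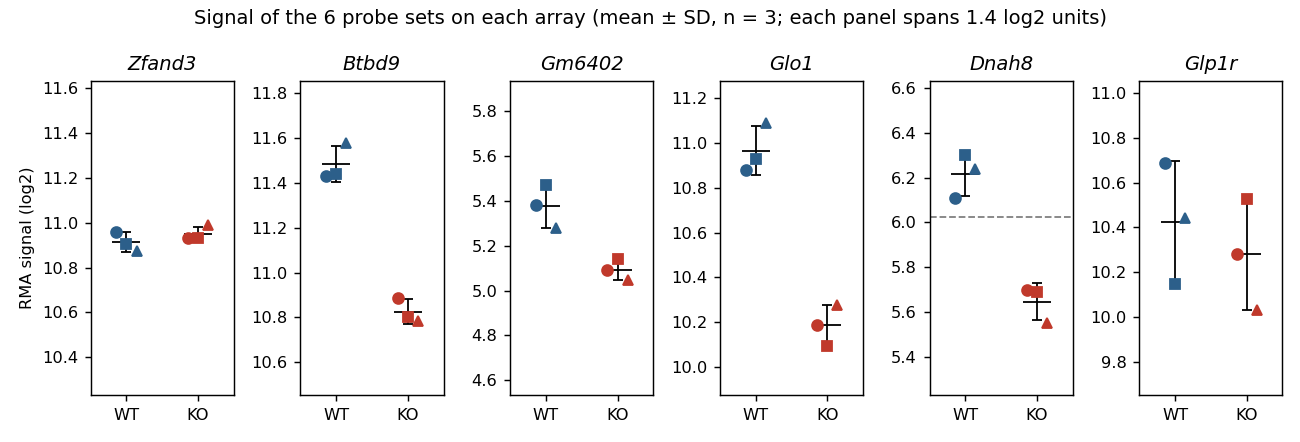
RMA signal on the log2 scale (vertical axis) of the 6 probe sets in gene order, on each wildtype (WT, blue) and quadruple knockout (KO, red) array, with circles, squares and triangles for replicates 1, 2 and 3 and black bars for the mean ± SD (n = 3). Each panel spans the same height, the dashed line is the background level of 6.03, and the groups are apart for Btbd9, Gm6402, Glo1 and Dnah8 and overlap for Zfand3 and Glp1r.

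As a description of the choice, 5 of the 6 genes had a lower mean in the knockout, where 51.5% of all probe sets did. For 4 of 6 the groups did not overlap and the knockout was lower, where this held for 7.39% of all 34472 probe sets. By limma, a linear model with variances moderated over all probe sets, 2 of 6 (Glo1 and Btbd9) were lower at an adjusted p under 0.05, where 0.0261% of all probe sets were. A change of more than 1.5-fold at an unadjusted p below 0.05, which the methods used as their threshold, was met by the same 2 genes, by 0.438% of all probe sets in either direction and by 0.174% with the knockout lower. The genes were chosen by this contrast, so nothing is read from these counts or from the shares beside them. With knockout replicate 1, 2 or 3 or wildtype replicate 1, 2 or 3 left out, 0 of 6 genes passed the adjusted p. Fewer arrays weaken the test for every probe set: 35 to 41 passed in these 6 cases, against 48 with all arrays. Over these 6 cases the differences ran from -0.83 to -0.72 for Glo1, from -0.69 to -0.61 for Btbd9 and from -0.62 to -0.52 for Dnah8. Glp1r moved from -0.28 without wildtype replicate 2 to -0.01 without wildtype replicate 1. The median log2 difference of all probe sets was -0.01.

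**Figure D2:**
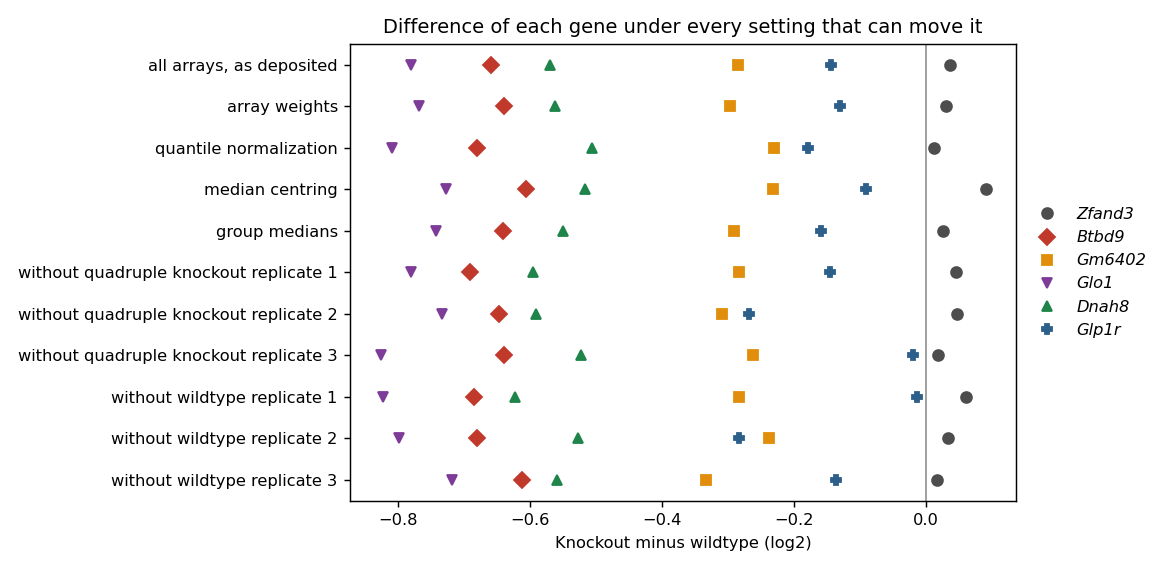
Log2 difference, quadruple knockout minus wildtype (horizontal axis), of each of the 6 genes (symbols) with all arrays as deposited and under each setting that can move it (rows). The differences of Glo1, Btbd9, Dnah8 and Gm6402 stay below -0.2 in every row, while Glp1r ranges from -0.28 to -0.01 and Zfand3 from 0.01 to 0.09.

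The other genes of the region were tested next, to see whether the lower signals reached past the block. Of 36 other loci in the block or within 15 positions of it in RefSeq gene order, 20 had a probe set with 1 symbol. Of these, 0 passed a limma adjusted p of 0.05, where 0.139% of all probe sets did. With so small a share, 0 calls among 20 genes do not show where the lower signals end. An ordinary test on each probe set alone also gave 0, but it gave 0 for the 6 genes of the block as well. Its 0 here and in the comparisons below is therefore a weak check. Of the 20, 15 had a mean signal above background, and for the other 5 a fall could hardly be seen. Without adjustment, 1 of the 20 was lower (p below 0.05) and 0 were higher, where 5.14% of all probe sets were lower at such a p. The log2 differences of the 15 ran from -0.24 to 0.18, and the highest of all 20, 0.29, belonged to Ubash3a, with a mean below background. The 1 measured gene between Glo1 and Dnah8, the long non-coding RNA gene 1700097N02Rik, read 6.92, 7.31 and 7.10 in the knockout and 7.50, 7.20 and 7.33 in the wildtype replicates. Its groups overlapped (difference -0.23, SE 0.12, limma adjusted p = 0.607). Before Zfand3, the nearest measured genes were the neuronal adhesion gene Mdga1 (0.15, SE 0.15), Ccdc167 (0.05, SE 0.08) and Gm20161, which was below background on all 6 arrays (5.33 ± 0.14 against 5.13 ± 0.10, SD, n = 3 each). After Glp1r they were Umodl1 (-0.10, SE 0.08), the cholesterol transporter gene Abcg1 (0.03, SE 0.07) and the trefoil factor gene Tff3 (-0.09, SE 0.12). For these 6 genes the limma adjusted p lay between 0.581 and 0.920. Farther out, the serine protease gene Tmprss3 had groups that did not overlap, at 5.91 to 6.05 in the knockout and 6.20 to 6.27 in the wildtype. Its difference of -0.24 (SE 0.07, limma adjusted p = 0.486) was the lowest of the 15. Only 1 knockout array was above background, so this difference is limited by signals near it. Over all probe sets, 7.39% had groups apart with the knockout lower. Of 1066 other measured genes on chromosome 17, 0 passed the adjusted p by limma or by the ordinary test, while 42 were lower and 42 higher when limma p below 0.05 was taken without adjustment, which is 3.94% in each direction, against 5.14% of all probe sets lower and 9.05% in either direction.

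**Figure D3:**
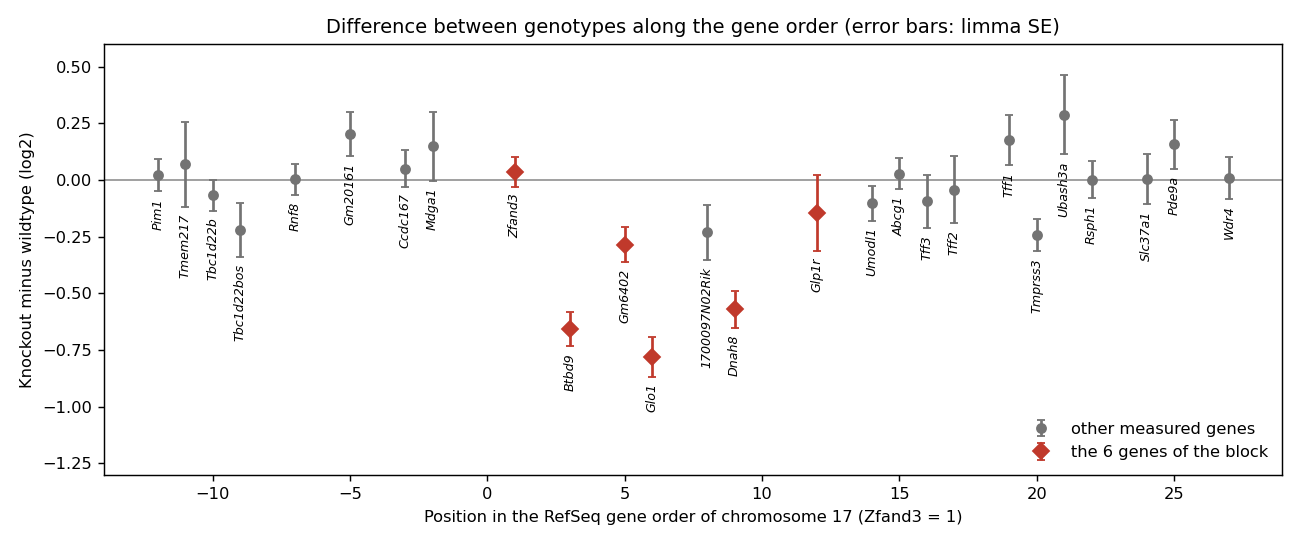
Log2 difference, quadruple knockout minus wildtype (vertical axis), with its limma SE (bars), against the position in the RefSeq gene order of chromosome 17 counted from Zfand3 (horizontal axis), for the 6 genes of the block (red diamonds) and the 20 other measured genes (grey circles). Btbd9, Glo1 and Dnah8 lie between -0.78 and -0.57, and the grey circles lie between -0.24 and 0.29, 5 of them for genes with a mean signal not above background.

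Among genes that work beside glyoxalase 1, 0 passed the adjusted p. Of 14 measured genes for the removal of methylglyoxal and related aldehydes, 0 passed it by limma or the ordinary test and 0 had an unadjusted limma p under 0.05 (median log2 difference 0.03, from -0.07 to 0.14). Those with the smallest p were the deglycase gene Park7 (0.12, limma adjusted p = 0.681) and the aldo-keto reductase gene Akr1b10 (0.14, limma adjusted p = 0.731). Of 17 genes of glutathione synthesis and use, 0 passed by either test. Without adjustment the limma p was below 0.05 for 1 higher and 1 lower, against 9.05% of all probe sets in either direction. Slc7a11, the cystine transporter that feeds glutathione synthesis, read 10.04 ± 0.16 against 9.50 ± 0.18 (SD, n = 3 each, limma adjusted p = 0.389), and Gss, glutathione synthetase, 8.07 ± 0.06 against 8.28 ± 0.07 (SD, n = 3 each, limma adjusted p = 0.509). Of 13 glycolysis genes, 0 passed by either test or had an unadjusted p under 0.05 (median 0.05). The phosphofructokinase genes Pfkm and Pfkp came nearest, with differences of 0.16 and 0.14 (limma adjusted p = 0.559 and 0.743).

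Of the genes grouped with Btbd9, 1 passed the adjusted p. The lists were chosen with earlier results of these data known, so this call is not an independent result. Hmox2, which encodes the constitutive heme oxygenase that releases iron from heme, read 9.74, 9.88 and 9.87 in knockout replicates 1, 2 and 3 and 10.46, 10.41 and 10.51 in wildtype replicates 1, 2 and 3. It was lower by -0.63 on the log2 scale (SE 0.07, adjusted p = 0.0358 by limma), or 1.55-fold more in the wildtype, and lies on chromosome 16. This call too was lost when any of the knockout replicates 1, 2 and 3 or wildtype replicates 1, 2 and 3 was left out. It was the only call among 13 measured iron handling genes, whose median was 0.05, and the iron exporter gene Slc40a1 was higher at an unadjusted p under 0.05 (0.38, SE 0.09, limma adjusted p = 0.402). Of 17 genes of cullin 3 and other BTB adaptors, 0 passed by limma or the ordinary test. Without adjustment the limma p was below 0.05 for 2, against 9.05% of all probe sets in either direction. Both were higher, Btbd11 (0.47, limma adjusted p = 0.451) and Klhl12 (0.22, limma adjusted p = 0.522).

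The relatives of Dnah8, Glp1r and Zfand3 had 0 genes past the adjusted p by limma or the ordinary test. Of 17 further genes of axonemal dyneins and their arms, 8 had a mean above background and 0 had an unadjusted limma p under 0.05. Of the 17, 13 were below 0, where 51.5% of all probe sets were. Their median was -0.08 and their lowest difference -0.13. Ccdc114 (-0.13, limma adjusted p = 0.642), with signals below background on all arrays, and Dnah5 (0.14, limma adjusted p = 0.686) had the smallest p. Of 12 ependymal and ciliated cell markers 0 had such a p, and their mean signal was 6.06 to 6.15 over the knockout arrays and 6.12 to 6.15 over the wildtype arrays. Of 8 choroid plexus markers 0 had such a p either, but 6 were below 0, with mean signals of 6.59 to 6.85 over the knockout and 6.71 to 6.97 over the wildtype arrays. Ttr, transthyretin, read 8.38, 7.44 and 7.38 in the knockout and 8.42, 8.94 and 7.77 in the wildtype replicates, overlapping groups with a difference of -0.64 (SE 0.35, limma adjusted p = 0.620). The water channel gene Aqp1 had groups that did not overlap, by a gap of 0.01 (difference -0.22, SE 0.10, limma adjusted p = 0.560). The other 2 choroid plexus markers were above 0, Sostdc1 (0.07) and Otx2 (0.17), the latter below background on all arrays. In both marker lists the ranges of the 2 groups overlapped, and the part of such cells in the Dnah8 difference was not tested.

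Of 17 ligands, receptors and partners in the glucagon family, the family of Glp1r, the unadjusted limma p was below 0.05 for 1 higher and 3 lower. Over all probe sets this held for 9.05% in either direction and for 5.14% with the knockout lower. Gip, a gut hormone gene, read 6.84 ± 0.10 against 7.23 ± 0.20, and Adcyap1, the neuropeptide PACAP, 9.06 ± 0.20 against 8.53 ± 0.36 (SD, n = 3 each, limma adjusted p = 0.484 and 0.509). Of 9 measured markers of hypothalamus and thalamus 3 were lower and 0 higher at such a p, against 5.14% of all probe sets lower. The 3 were Avp, Oxt and Pmch, the last below background on all arrays. Of the 9, 6 were below 0, where 51.5% of all probe sets were, and 3 above, Tcf7l2 (0.16), Calb2 (0.07) and Prkcd (0.39). The mean signal of the 9 was 7.26 to 7.30 over the knockout and 7.21 to 7.45 over the wildtype arrays. The part of such tissue in the Glp1r signals was not tested. Of 6 AN1 zinc finger genes beside Zfand3, 1 was higher at such a p, Zfand4 (0.19, limma adjusted p = 0.534), with signals below background on all arrays, and Zfand5 had -0.07 (limma adjusted p = 0.749). Over all 17 lists, cell type markers included, 1 of 191 genes passed the adjusted p, where 0.139% of all probe sets did. The unadjusted limma p was below 0.05 for 7 that were higher and 9 that were lower, against 9.05% of all probe sets in either direction.

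**Figure D4:**
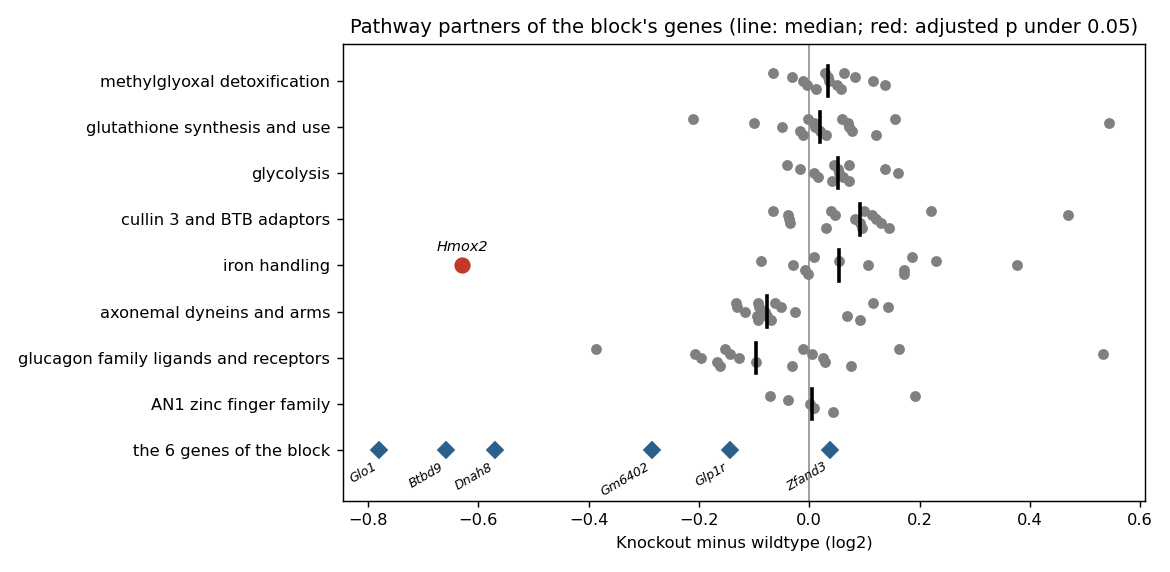
Log2 difference, quadruple knockout minus wildtype (horizontal axis), of every measured gene in 8 lists of pathway partners and relatives (grey points, with a black line at the median and red for the gene past the limma adjusted p of 0.05) and of the 6 genes of the block (blue diamonds, bottom row). The list medians lie between -0.10 and 0.09, and Hmox2 at -0.63 is the red point.

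The genes whose signals followed those of Glo1 most closely over the 6 arrays were sought among 14600 genes above background. The 5 highest Pearson correlations with Glo1 were those of the receptor tyrosine kinase gene Ltk (r = 0.998), Dennd3 (r = 0.996), the amino acid transporter gene Slc7a10 (r = 0.988), the glucose transporter gene Slc2a1 (r = 0.988) and Btbd9 (r = 0.984). For Btbd9 they were those of the matrix gene Spon2 (r = 0.992), the targeted gene Ncan (r = 0.986), Spsb1 (r = 0.986), Gpr25 (r = 0.986) and Glo1 (r = 0.984). The 6 arrays form 2 genotype groups, so a difference between them, even a small one, can raise r. Slc7a10 is such a case, with a difference of -0.10 (limma adjusted p = 0.652). In all, 32 genes had an r above 0.95 with Glo1 and 35 with Btbd9. Among the block, Dnah8 had an r of 0.94 with Glo1 and 0.97 with Btbd9, Gm6402 of 0.83 and 0.86, Glp1r of 0.21 and 0.33, and Zfand3 of -0.53 and -0.60.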

How the data were processed

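RNA from the hippocampus of 3 quadruple knockout and 3 wildtype mice was hybridised to 6 arrays, grouped by the sample titles. The authors normalized the arrays by RMA in Affymetrix Expression Console and deposited log2 signals for 34472 probe sets. Software versions and the build were not given in the sources used here, and the platform annotation supplied the gene names (23521 probe sets with 1 symbol), the brightest was taken for each gene, and the gene order came from GRCm38.p6, which served only to place neighbours.

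The genotypes were compared by limma (3.58.1, under R 4.3.3, no covariate, two-sided, Benjamini-Hochberg over all probe sets), tested on simulated data, and plots were made with matplotlib 3.10.9. The 6 genes and the lists were chosen with earlier results of these data known. Named are the 6 genes, targeted genes, the 3 nearest measured genes on each side and genes in the 15-position window with a call or with groups apart at an unadjusted p under 0.05, in pathway lists the genes called or else up to 2 with the smallest p, and the 5 genes most like Glo1 and Btbd9. Slc40a1, Odf1, Ubash3a, Sostdc1, Otx2 and the named markers of hypothalamus and thalamus were named after their values were seen. Ttr and Aqp1 had the smallest p of the choroid plexus markers. Promoter windows are those of RefSeq. Probe positions were not examined, so a probe set that also reads a near-identical copy was not separated. Arrays have no read depth, and their number limits the precision. Median signals ran from 6.30 to 6.33 over the knockout arrays and from 6.34 to 6.39 over the wildtype arrays.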

Additional observations from a re-analysis of the deposited data

How the results depend on the processing

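The number of the 6 genes past the limma adjusted p of 0.05 was 2 with an intensity trend and robust variances, array weights, quantile normalization, without dim probe sets, with the mean of all probe sets of a gene and by the 1.5-fold rule. It was 1 (Glo1) after median centring and 0 by the ordinary test. Leaving out each array in turn gave 0 to 0 of the 6 genes, 0 to 0 listed genes and 0 to 0 neighbours and 35 to 41 probe sets in all. The deviations of same-numbered arrays had correlations of 0.00, -0.12 and -0.03, which give no sign of pairing but do not settle it. With the replicate number as a block, 0 of the 6 genes, 0 listed genes and 39 probe sets passed. The single listed gene, Hmox2, was not called after median centring, by the ordinary test or with the mean of all probe sets of a gene (0 in each). Over all probe sets the count of 48 (39 higher, 9 lower) was 24 by the ordinary test and 151 by the 1.5-fold rule. With the mean of all probe sets of a gene, 10 passed. That is a count over the 22180 genes with a probe set of 1 symbol, so it is not on the same footing as the 48. The count of neighbours past the adjusted p was 0 under every setting run, windows of 5 and 30 positions included. Under the settings that can move them, the differences of the 6 genes, except that of Zfand3 after median centring (0.09), stayed within 1 SD of the reported value. Median centring moved the median of all probe sets from -0.01 to 0.05. With 3 arrays in a group, a difference as small as that of Glp1r could not be told from the spread, and Dnah8 and Gm6402 are limited by signals near background. The number of the 6 genes with a mean above background was 4, and 5 with the 90th percentile in place of the 95th.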

Other observations

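Lower or higher signals in neighbouring genes were looked for along the gene order of all chromosomes, after the values of this block had been seen. Over 21981 placed genes there were 7 runs of at least 3 consecutive measured genes with groups apart in the same direction and an unadjusted limma p under 0.05. Of these, 2 runs were lower in the quadruple knockout. The run on chromosome 17 held Btbd9, Gm6402 and Glo1, and that on chromosome 4 held Epha10, an ephrin receptor gene, 1700125G02Rik and Cdca8. Btbd9 and Glo1 were chosen by this same contrast, so nothing is read from the chromosome 17 run. Gm6402 lay below the background level on all arrays. How many such runs would arise without a genotype difference was not tested. The other 5 runs were higher and lay on chromosomes 1, 2, 5, 7 and 10. They include B3gat2, Sdhaf4 and Fam135a on chromosome 1 and a run on chromosome 2 of Gm2004, Gm14295, Gm14405 and Gm14403. The longest lower run held 3 genes and the longest higher run 4.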
